A study of Mus musculus with 11 samples.

Results

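The genes described here encode the factors that start and extend protein synthesis in the cytosol. They were taken by name, as every non-control probe whose gene name begins with Eif1 to Eif6, Eef1 or Eef2, leaving out the eIF2 alpha kinases (Eif2ak) and Eif2s3y. The rule took 93 probes of 61 genes, of which 58 passed the filter on dim probes and were tested among 20177 genes in all. The genes that failed were Eef1a2, an elongation factor of nerve and muscle, not well above background on any of the 11 arrays; Eif4e1b, a cap-binding protein of the oocyte, whose best probe was well above background on 1 array; and Eif5b, the GTPase of subunit joining, on 2 arrays. Of the 61 genes, 4 carry older file names (Eif2c1 to Eif2c4) of the argonautes Ago1 to Ago4, which act in RNA silencing and not in initiation, and they are kept apart as a group of their own.

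Initiation begins when eIF2 carries the first tRNA to the small ribosomal subunit, which eIF1, eIF1A and eIF3 prepare for scanning. The cap-binding eIF4E, the scaffold eIF4G and the RNA helicase eIF4A form eIF4F, which recruits the mRNA and opens its leader, and eIF5 and eIF5B complete the joining of the large subunit. During elongation eEF1A delivers aminoacyl-tRNA, the eEF1B subunits recharge it with GTP, and eEF2 moves the ribosome along. Many of these genes are textbook targets of MYC, the transcription factor whose deregulation drives the tumours of this model.

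The tumours came from lymph nodes of Black 6 mice that carry a c-myc transgene driven by the 3' regulatory region of the heavy chain gene cluster of immunoglobulins (c-myc-3'RR) and 1 intact p53 allele (p53+/-). All 3 groups share this genotype, which the regulatory region makes active in B lineage cells, and the labels place every tumour at the mature B cell stage. Ages were not used here. Expression was measured on single-colour arrays in 4 plasma cell lymphomas (PCL1 to PCL4), 3 mantle cell lymphomas (MCL1 to MCL3) and 4 Burkitt lymphomas (BL1 to BL4), 1 array per tumour. A level below is the log2 processed signal of a gene's brightest probe minus the array's 75th percentile, so that 0 is that percentile; levels are compared between tumours and never between probes. The labels do not tie tumours to separate mice, and the spread behind each p-value may be in part technical.

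The 7 B cell markers were well above background on all 11 arrays, and so were the 6 plasma cell markers. The summed plasma cell signal was 5.06 in PCL1 and 5.95 to 6.03 in PCL2 to PCL4 (log2), against 4.83 to 5.41 in MCL and 4.95 to 5.23 in BL, so PCL1 lay within the range of the other types. The 10 macrophage and monocyte markers divided the PCL tumours in the same way, with a summed signal of 0.66 in PCL1 and 3.29 to 4.45 in PCL2 to PCL4, against 0.61 to 1.94 in MCL and 1.32 to 2.08 in BL; 10 of 10 had a higher mean in PCL than in either other type, and 5 were well above background on all arrays. The 6 proliferation markers had a summed signal of 5.21 to 5.74 in PCL, 5.34 to 6.21 in MCL and 5.96 to 6.21 in BL, so every PCL tumour lay below every BL tumour, and 1 of the 7 B cell markers had a higher mean in PCL than in BL (median -0.65). The part of these markers in the differences between PCL and BL was not tested. Within PCL the summed granulocyte signal ran from -0.24 in PCL1 to 4.41 in PCL2. It ran from 0.64 to 1.82 in MCL and from -0.46 to 3.32 in BL. In bulk tumours a different share of cells and a different amount of RNA per cell cannot be told apart. Each type was hybridised on its own slide, so type and slide cannot be told apart either, in any comparison. The number of arrays limits the precision: over all genes the standard error of a difference had a median of 0.31 between PCL and MCL and 0.29 between PCL and BL.

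Promoter sequence was examined for the CACGTG form of the E-box, the motif that MYC and its partner MAX are known to bind. The motif is its own reverse complement, so a match counts for both strands. In RefSeq promoters of build GRCm38.p6, which run from 250 bases before a start to 50 after it, 47 of the 61 genes had an entry and 12 (25.5%) held the motif, against 8.09% of all 27025 genes in that table and 11% of the 11775 tested genes found in it. The 12 are Eef2, Eef2k, Eif1b, Eif3a, Eif3f, Eif3k, Eif4a1, Eif4e, Eif4g1, Eif4h, Eif5a and Eif5a2. By role, the motif was found in 4 of 9 eIF4 genes with an entry, 3 of 10 eIF3 genes, 2 of 4 of the eIF5 and eIF6 group, both eEF2 genes and 1 of 4 eIF1 and eIF1A genes, and in none of the 5 eIF2, 4 eIF2B or 4 eEF1 genes. A match describes letters in a window and does not show binding. The 250 bases before the start of Eif4a1, the helicase gene to which the results return, are shown with the motif in capitals; it begins 189 bases before the start.
Eif4a1, chr11:69672424-69672673, minus strand: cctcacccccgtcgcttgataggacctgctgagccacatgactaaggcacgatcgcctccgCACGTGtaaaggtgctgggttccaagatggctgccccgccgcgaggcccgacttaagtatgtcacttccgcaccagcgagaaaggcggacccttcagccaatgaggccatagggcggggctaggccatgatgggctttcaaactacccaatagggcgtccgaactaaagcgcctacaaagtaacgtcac

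The E-boxes of the other cap complex genes, of Eif5a and of the eEF2 pair are shown with 12 bases on each side, because these genes stand in the results by role; the capitals again mark the motif. Eif4e and Eif4g1 each held 2, and the 2 sites of Eif5a belong to different annotated starts.
Eif4e, chr3:138527028-138527057, plus strand: ctcgccagcgacCACGTGatcacttttttt
Eif4e, chr3:138527192-138527221, plus strand: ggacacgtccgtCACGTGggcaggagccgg
Eif4g1, chr16:20672661-20672690, plus strand: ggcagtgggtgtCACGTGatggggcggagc
Eif4g1, chr16:20672730-20672759, plus strand: ctctgcgccggtCACGTGgggcgctggctg
Eif4h, chr5:134639488-134639517, minus strand: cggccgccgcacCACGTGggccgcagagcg
Eif5a, chr11:69920791-69920820, minus strand: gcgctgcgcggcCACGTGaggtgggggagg
Eif5a, chr11:69921443-69921472, minus strand: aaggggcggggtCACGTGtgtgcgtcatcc
Eef2, chr10:81176576-81176605, plus strand: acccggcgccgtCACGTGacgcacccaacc
Eef2k, chr7:120842788-120842817, plus strand: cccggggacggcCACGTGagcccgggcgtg

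Of the 12 genes that held it, 7 had a higher mean in PCL than in MCL, with a median difference of 0.12, against 22 of 33 tested genes whose promoter was in the table without it, with a median of 0.22. Between PCL and BL the counts were 5 of 12 and 22 of 33, with medians of -0.10 and 0.15. These are descriptions without a test.

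Most translation factor genes were measured firmly and differed little between tumours. The 58 tested genes were well above background on all 11 arrays. Their SD over the 11 tumours had a median of 0.31 on the log2 scale, against 0.49 over all genes tested and 0.37 over the 8051 genes with a mean level above 0. The steadiest was Eif3g, an RNA-binding subunit of eIF3, whose levels lay between 6.27 and 6.71 (SD 0.15), at percentile 0.763 of the SDs of all genes. The most variable was Ago2, the slicer argonaute, with an SD of 1.28, followed by Ago4 (0.71) and Eef2k, the kinase that inhibits eEF2 (0.70). Ago2 was the single member whose type means differed by over 1 log2 unit.

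**Figure D1:**
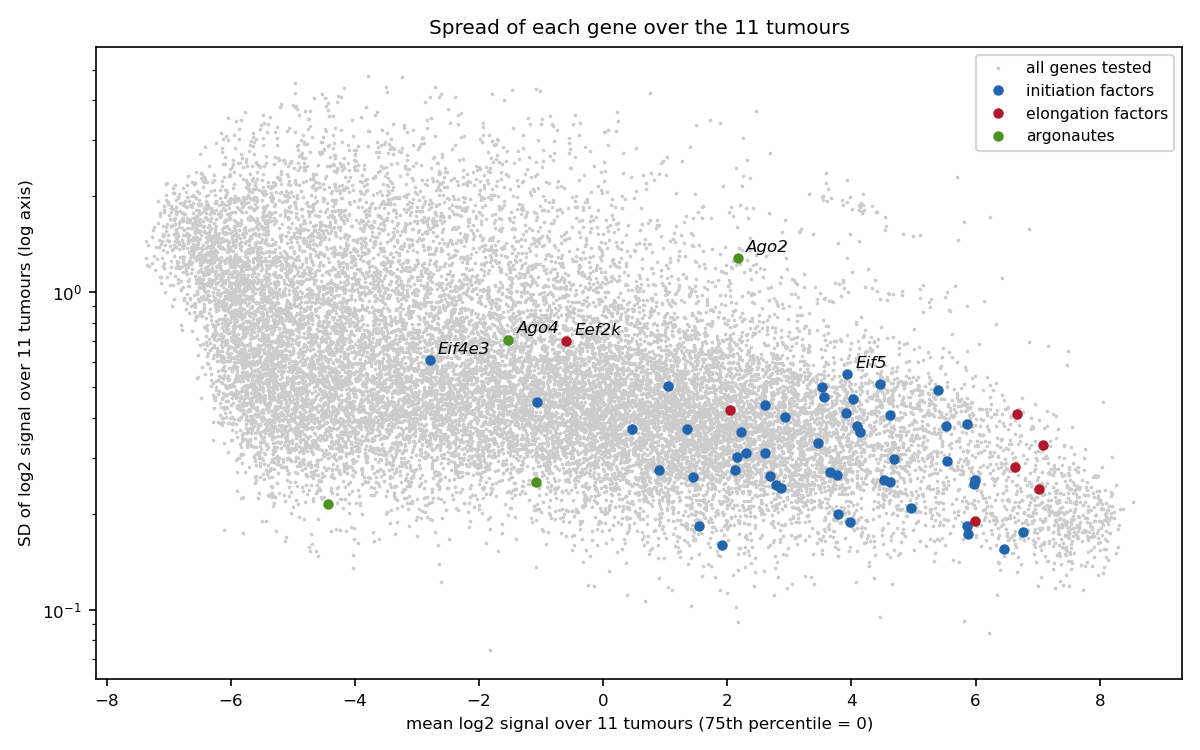
Mean level (log2 signal, array 75th percentile at 0) against the SD over the 11 tumours (log axis) for all 20177 genes tested (grey), initiation factors (blue), elongation factors (red) and argonautes (green). Most initiation and elongation factors lie to the right and low, with a median SD of 0.31 over the 58 members, and Ago2 stands apart at 1.28. Brightness also depends on the probe.

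The first question was whether the 3 lymphoma types differ in this machinery. In limma's moderated F test, with adjusted p under 0.05 over all 20177 genes as the threshold, 1 of the 58 genes differed among the types, Eif4a1, against 8.38% of all genes tested. Without adjustment 11 had p under 0.05, or 19%, against 26.6% of all genes. Of the 8051 genes with a mean level above 0, 312 were called in the same test. Without adjustment 19.7% of them had p under 0.05, close to the 19% of the members. Among the 58 members PCL held the highest of the 3 type means in 32 genes, BL in 17 and MCL in 9. The lowest mean fell to MCL in 23 of these genes, to BL in 20 and to PCL in 15. The median over the 58 genes, each centred on its own mean over the 11 tumours, was 0.08, 0.11, 0.11 and 0.16 in PCL1 to PCL4. It was -0.10, 0.01 and -0.10 in MCL1 to MCL3, and 0.02, 0.11, -0.05 and -0.16 in BL1 to BL4. PCL and MCL did not overlap in this median, while BL spanned both; PCL4 had the highest level of the 11 tumours in 9 genes, and BL1 and BL4 the lowest in 11 each.

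**Figure D2:**
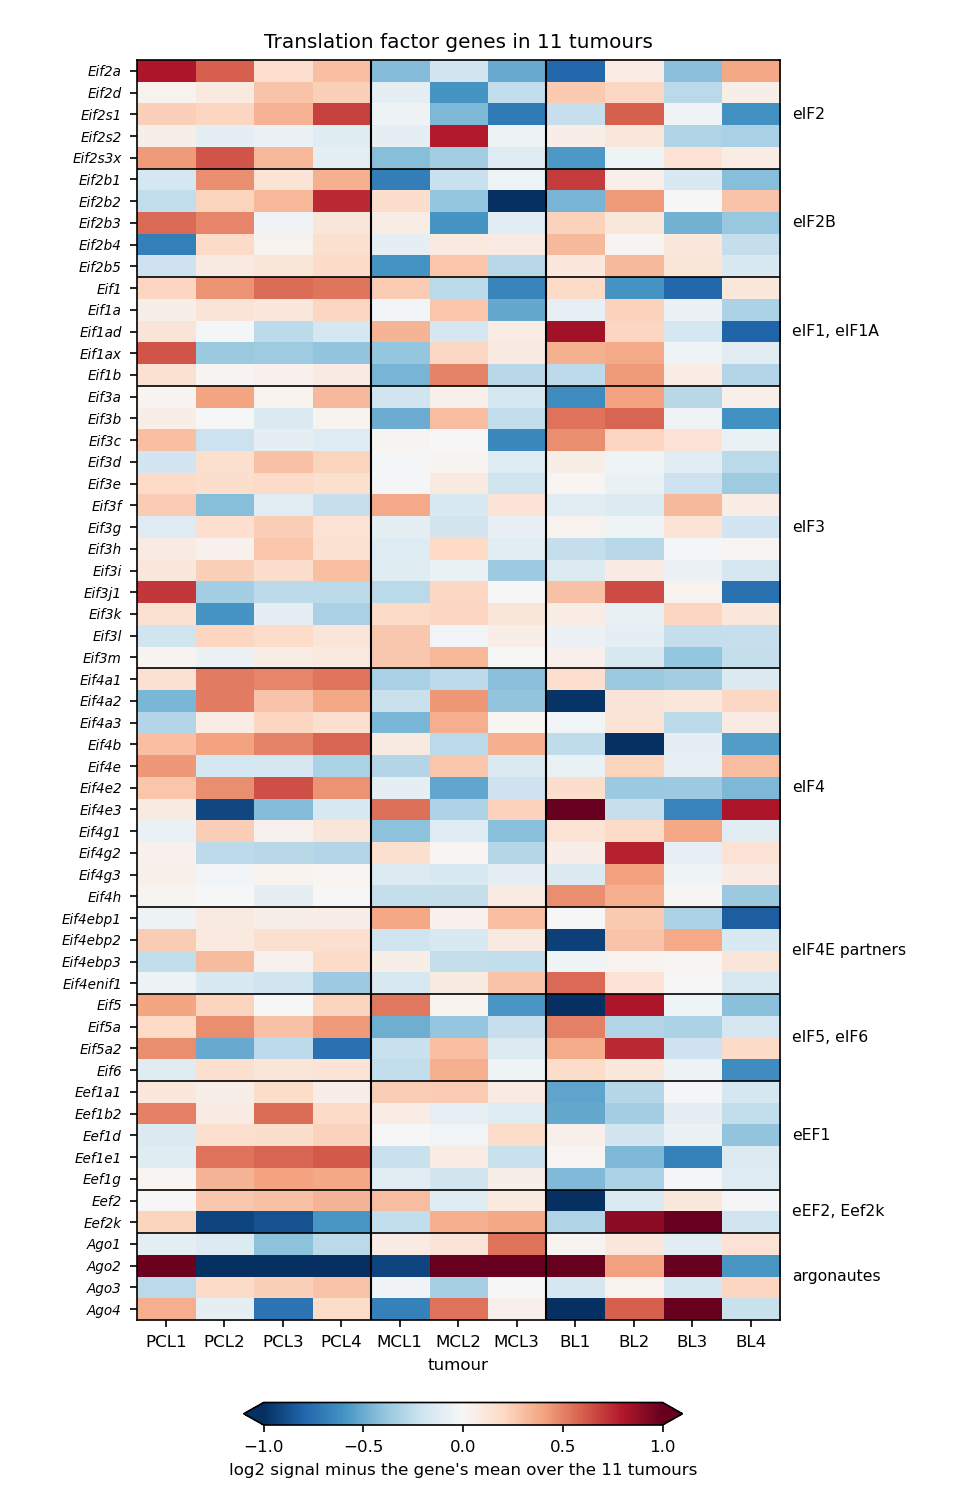
Each row is a translation factor gene, grouped by role, and each column a tumour; colour is the log2 signal minus the gene's mean over the 11 tumours, red above it and blue below, with the scale ending at 1 in both directions. Eif4a1 is red in the 4 PCL tumours and in BL1. Ago2, Ago4, Eef2k and Eif4e3 have the largest SDs of the members.

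Between PCL and MCL, 38 of the 58 genes had a higher mean in PCL (65.5%). The share was 48.1% of all genes and 55.2% of those with a mean level above 0. The members' median difference was 0.16, against -0.03 over all genes and 0.05 over those with a mean level above 0. With background correction by normexp the median over all genes moved to 0.16 and that of the members to 0.10, so their position relative to all genes turned with the background treatment; without the filter on dim probes the median over all genes was 0.13. In limma's contrast 1 member was called, against 6.85% of all genes, and 11 had an unadjusted p under 0.05 (19%, against 24.3%). Of the 8051 genes with a mean level above 0, 304 were called and 1565 had such a p. The tumours of the 2 types did not overlap in 14 members, or 24.1%, against 22.8% of all genes, and 13 of the 14 were higher in PCL. Between PCL and BL, 37 members had a higher mean in PCL (63.8%, against 58.7%), with a median of 0.16 against 0.09. By limma 0 were called, against 0.659%, and 11 had an unadjusted p under 0.05 (19%, against 17.6%). In 9 the types did not overlap (15.5%, against 11%), all 9 higher in PCL. Of the genes with a mean level above 0, 53.3% had a higher mean in PCL than in BL, with a median of 0.03. Between MCL and BL, 24 members had a higher mean in MCL (41.4%, against 54.2%), with a median of -0.06 against 0.06. Of the genes with a mean level above 0, 42.6% did, with a median of -0.07, so the members lay near these. The count of 24 moved with the scaling, to 18 with each array centred on its median and 27 with quantile normalization or array weights. It was 28 with normexp and 29 in the authors' value table. In limma's contrast 0 members were called, against 6.63% of all genes. Of the members, 3 had an unadjusted p under 0.05 (5.17%, against 18.4%) and 3 did not overlap (5.17%, against 17.7%). Among the 8051 genes with a mean level above 0, 184 were called, 894 had such a p and 980 did not overlap. The 3 comparisons share tumours, so their values stand side by side and are not independent.

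**Figure D3:**
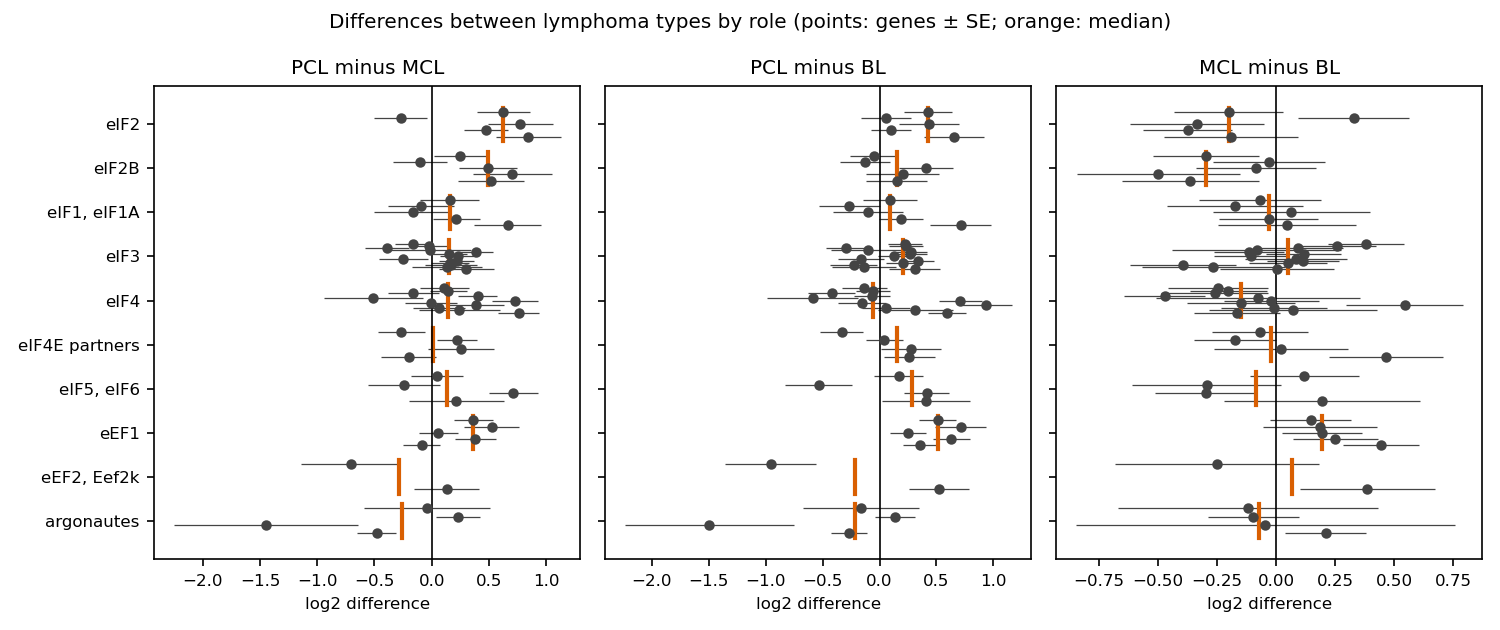
Differences between the type means (log2, points with SE from limma) for every tested gene, in rows by role, with the median of each role in orange; the 3 panels are PCL minus MCL, PCL minus BL and MCL minus BL, each with its own scale. The eIF2 genes have a median of 0.63 in the first panel and the eEF1 genes of 0.51 in the second.

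Eif4a1 encodes the main RNA helicase of eIF4F and was the single gene of the machinery that passed the test. Its level was 6.02, 6.39, 6.35 and 6.40 in PCL1 to PCL4, 5.55, 5.60 and 5.45 in MCL1 to MCL3, and 6.04, 5.50, 5.53 and 5.73 in BL1 to BL4. Every PCL tumour lay above every MCL tumour, while BL1 lay at the level of PCL1 and the other BL tumours near MCL. The PCL mean was 0.76 above the MCL mean (95% interval 0.35 to 1.16, or 1.69-fold; limma, adjusted p = 0.0376; higher in 4 of 4 tumours), and the F test gave adjusted p = 0.0463. The gene was 0.59 higher in PCL than in BL, which did not pass (limma, adjusted p = 0.115), and MCL minus BL was -0.17 (adjusted p = 0.706). PCL1, the tumour low in plasma cell and macrophage markers, was also the lowest PCL tumour here, and without it the difference from MCL was 0.85 (limma, adjusted p = 0.0197). The call was lost without PCL2 (adjusted p = 0.106), PCL3 (0.0931), PCL4 (0.109), MCL1 (0.0831), MCL2 (0.0868), MCL3 (0.102) or BL4 (0.0501), while the difference stayed between 0.72 and 0.85 over all 11 omissions of 1 tumour. The probe lies at chr11:69480486-69480545 in build mm9, per the file headers, and is the gene's only probe kept, so no second probe bears on it.

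**Figure D4:**
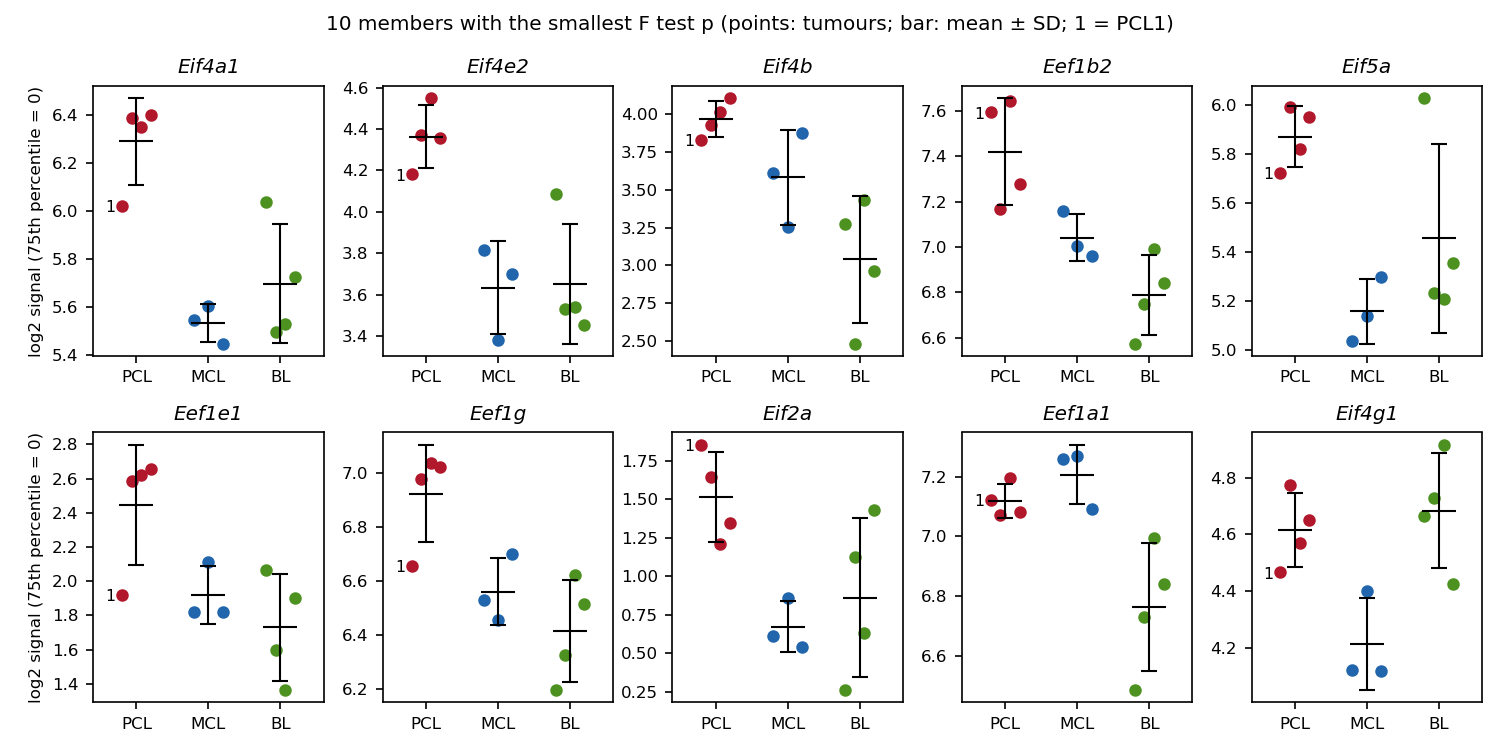
Level of the 10 genes with the smallest F test p in each tumour (points; log2 signal, array 75th percentile at 0), with mean and SD per type (black) and PCL1 marked 1; each panel has its own scale, which does not start at 0. Eif4a1 shows 4 PCL tumours between 6.02 and 6.40 above 3 MCL tumours between 5.45 and 5.60.

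The paralogue Eif4a2, a close homologue of the helicase, gave 3.56, 4.53, 4.31 and 4.41 in PCL, 3.80, 4.45 and 3.62 in MCL, and 3.04, 4.15, 4.13 and 4.23 in BL. Its types overlapped throughout, and its PCL minus MCL difference was 0.24 ± 0.36 (SE). The log2 ratio of Eif4a1 to Eif4a2, each centred on its mean over the 11 tumours, was 1.15 in BL1, where Eif4a1 was the highest of the BL tumours and Eif4a2 the lowest of all, and otherwise ran from -0.70 in MCL2 to 0.61 in PCL1. Eif4a3, a helicase of the exon junction complex and not of eIF4F, differed by 0.06 between PCL and MCL.

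Among the other cap complex genes, Eif4e2 and Eif4b came nearest to the threshold. Eif4e2 encodes a cap-binding homologue of eIF4E known for repressing translation, and its level was 4.18, 4.37, 4.55 and 4.36 in PCL, 3.82, 3.38 and 3.70 in MCL, and 4.08, 3.53, 3.54 and 3.46 in BL. All PCL tumours lay above all others, by a mean of 0.73 over MCL (limma, adjusted p = 0.0575) and 0.71 over BL (adjusted p = 0.103). Another of its 3 probes gave 0.56 and 0.41 for these differences and the third 0.14 and -0.38, so the probes disagree. Eif4b, the cofactor that stimulates the eIF4A helicase, had levels of 3.83, 3.93, 4.02 and 4.11 in PCL, 3.61, 3.25 and 3.88 in MCL, and 3.28, 2.48, 3.43 and 2.96 in BL. PCL lay above BL without overlap, by 0.93 (95% interval 0.43 to 1.44; limma, adjusted p = 0.0896), and its 2 other probes gave 0.48 and 0.68; between PCL and MCL the brightest probe gave 0.39 and the others -0.08 and 0.07.

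The scaffold gene Eif4g1 had its lowest values in MCL, at 4.12, 4.40 and 4.12, against 4.47, 4.78, 4.57 and 4.65 in PCL and 4.67, 4.73, 4.92 and 4.42 in BL. The MCL tumours did not overlap either other type, with differences of 0.40 for PCL minus MCL (limma, adjusted p = 0.180) and -0.47 for MCL minus BL (adjusted p = 0.154). Its paralogue Eif4g3 was among the steadiest genes (SD 0.16), with levels between 1.75 and 2.32. The cap-binding gene Eif4e, the best known of the family as a growth-promoting factor, differed by -0.01 ± 0.23 (SE) between PCL and MCL and by -0.15 ± 0.21 between PCL and BL, while its other probe gave 0.38 and 0.07. Its paralogue Eif4e3 ranged from -3.71 in PCL2 to -1.77 in BL1 (SD 0.61) with overlapping types. Over the 11 tested eIF4 genes, 8 had a higher mean in PCL than in MCL and 5 a higher mean in PCL than in BL, and 2 had a higher mean in MCL than in BL.

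Of the 4 genes whose products bind eIF4E and hold it back or carry it, 0 were called in any contrast by limma and 0 had an unadjusted p under 0.05. Over all genes 0.659% to 6.85% were called in a contrast and 17.6% to 24.3% had such a p. Eif4ebp1, the mTOR-controlled inhibitor, was 3.40, 3.55, 3.51 and 3.52 in PCL, 3.84, 3.50 and 3.76 in MCL, and 3.45, 3.72, 3.14 and 2.63 in BL. Its PCL values were close together and its BL values were not, BL4 being the lowest tumour. Eif4ebp2 had the largest spread of the 4 genes (SD 0.36), with 1.29 in BL1 against 2.02 to 2.60 in the other 10 tumours, and Eif4ebp3 the smallest (SD 0.18). Eif4enif1, the eIF4E transporter, differed by -0.27 ± 0.20 (SE) between PCL and MCL.

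The eIF2 group holds the subunit genes of eIF2, which carries the initiator tRNA, and also Eif2a and Eif2d, whose products are not subunits of it. This group had the largest median difference of any role group between PCL and MCL, at 0.63. PCL and MCL did not overlap in 4 of its 5 genes (against 22.8% of all genes), all higher in PCL, and 0 of the 5 were called (against 6.85%; smallest adjusted p = 0.103 by limma). Eif2a, an alternative tRNA carrier that is not a subunit of eIF2, gave 1.86, 1.65, 1.21 and 1.35 in PCL, 0.61, 0.86 and 0.54 in MCL, and 0.26, 1.12, 0.63 and 1.43 in BL. PCL and MCL were separate and BL spread across both, with a PCL minus MCL difference of 0.84 (95% interval 0.21 to 1.48). Eif2s1, the alpha subunit that stress kinases phosphorylate, differed by 0.77 ± 0.28 (SE; limma, adjusted p = 0.131), and Eif2s3x, the gamma subunit, by 0.63 ± 0.23 (adjusted p = 0.132). Eif2d, a factor of reinitiation and recycling, had the smallest spread of the group (SD 0.28) and differed by 0.48 ± 0.19. The brightest probe of the beta subunit Eif2s2 gave -0.27 ± 0.24 and its other probe 0.19, so its direction is not settled; the first had 5.48 in MCL2 and 4.36 to 4.80 in the other 10 tumours.

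In eIF2B, the exchange factor that recharges eIF2, 4 of 5 genes had a higher mean in PCL than in MCL, with a median of 0.49, and all 5 had a lower mean in MCL than in BL. None of the 5 had an unadjusted p under 0.05 in any contrast by limma, against 17.6% to 24.3% of all genes. Of the 5, 0 were called, against 0.659% to 6.85% of all genes. Eif2b2 had the widest range, from 3.36 in MCL3 to 5.20 in PCL4, and Eif2b4 the smallest SD (0.27), with 2.97 in PCL1 as its lowest value. Among the genes of start codon selection, Eif1, whose product keeps the scanning ribosome from starting at a wrong codon, was 5.62, 5.85, 5.95 and 5.93 in PCL, 5.65, 5.13 and 4.74 in MCL, and 5.59, 4.81, 4.62 and 5.50 in BL. PCL lay above BL without overlap, narrowly, by 0.71 (limma, adjusted p = 0.212), and MCL1 overlapped PCL. Its paralogue Eif1b differed by 0.16 ± 0.26 (SE) between PCL and MCL, and Eif1a had the smallest spread of this group (SD 0.24).

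The 13 eIF3 genes, which encode the scaffold around the small subunit, were the steadiest large group, with a median SD of 0.21. PCL exceeded MCL in 8 of 13 means, with a median of 0.15, and 0 were called in any contrast (against 0.659% to 6.85% of all genes). Between PCL and MCL 2 of 13 did not overlap, Eif3e and Eif3i (against 22.8% of all genes). Between PCL and BL 3 did not, Eif3e, Eif3h and Eif3i (against 11%). Eif3i was 3.90, 4.02, 3.96 and 4.08 in PCL, 3.66, 3.71 and 3.42 in MCL, and 3.64, 3.87, 3.72 and 3.62 in BL. The gap to the nearest BL tumour was small beside the spread, and the PCL minus MCL difference of 0.39 had an adjusted p = 0.140 by limma. Eif3j1, a loosely bound subunit, was the most variable (SD 0.44), with 3.31 in PCL1 against 2.26 to 2.34 in PCL2 to PCL4. Its other probes had a Pearson's r of 0.47 and -0.12 with this brightest probe over the 11 tumours, so the probes disagree. The subunit genes did not move together over the 11 tumours: Pearson's r had a median of 0.11 over 78 pairs. It was 0.10 over all pairs of members and 0.01 over all genes. Tumours of a type share a slide in these correlations, here and in the next paragraph.

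The eEF1 genes behaved more alike. Over the 5 tested eEF1 genes all 10 pairs had a positive r, with a median of 0.59 over the 11 tumours and a range from 0.26 to 0.76. The median was 0.10 over all pairs of members and 0.01 over all genes. All 5 had a lower mean in BL than in PCL, with a median difference of 0.51, and than in MCL, with a median of 0.19 that was 0.12 with quantile normalization or median centring and 0.07 in the authors' value table. Between PCL and BL 3 of the 5 did not overlap (against 11% of all genes), 4 had an unadjusted p under 0.05 (against 17.6%), and 0 were called (against 0.659%). Eef1a1, the abundant tRNA carrier, was 7.12, 7.07, 7.20 and 7.08 in PCL, 7.26, 7.27 and 7.09 in MCL, and 6.48, 6.73, 6.99 and 6.84 in BL. Every BL tumour lay below every other tumour, with MCL minus BL at 0.44 (limma, adjusted p = 0.152) and PCL minus BL at 0.36 (adjusted p = 0.249). The MCL minus BL difference was 0.26 with normexp (limma, adjusted p = 0.885) and 0.05 in the authors' value table (adjusted p = 0.896), so it depends on the processing. The other probe gave 0.25 for PCL minus BL. This gene has near-identical retrocopies, so its signal may hold other transcripts.

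The exchange subunit gene Eef1b2 was 7.59, 7.17, 7.64 and 7.28 in PCL, 7.16, 7.00 and 6.96 in MCL, and 6.57, 6.75, 6.99 and 6.84 in BL. Every PCL tumour lay above every tumour of the other types, narrowly over MCL1, and by a mean of 0.63 over BL (95% interval 0.26 to 1.00; limma, adjusted p = 0.103). Eef1g, the structural subunit, was 6.66, 6.98, 7.04 and 7.02 in PCL, 6.53, 6.46 and 6.70 in MCL, and 6.20, 6.33, 6.62 and 6.51 in BL. Its PCL minus BL difference was 0.51 (limma, adjusted p = 0.139), and its 2 other probes gave 0.57 and 0.52. Eef1e1, a small protein of the multisynthetase complex, was 1.92, 2.59, 2.62 and 2.65 in PCL, 1.82, 2.11 and 1.82 in MCL, and 2.06, 1.60, 1.36 and 1.90 in BL. PCL1 sat with the other types, and without it the PCL minus BL difference went from 0.71 (limma, adjusted p = 0.138) to 0.89 (adjusted p = 0.0372). The macrophage markers separate PCL1 from PCL2 to PCL4 in the same way, and their part in this difference was not tested. Eef1d, the delta subunit, had the smallest spread of the group (SD 0.19) and a PCL minus BL difference of 0.25 ± 0.16 (SE).

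The translocase gene Eef2 and the gene of its inhibiting kinase stood opposite each other in their mean differences. Eef2 was 6.67, 6.94, 6.97 and 7.01 in PCL, 6.98, 6.55 and 6.77 in MCL, and 5.54, 6.53, 6.78 and 6.66 in BL, with BL1 the lowest of all tumours, and its PCL minus BL difference was 0.52 ± 0.26 (SE). Eef2k was -0.38, -1.52, -1.47 and -1.18 in PCL, -0.85, -0.24 and -0.21 in MCL, and -0.90, 0.30, 0.67 and -0.80 in BL. PCL2 to PCL4 were the 3 lowest tumours and PCL1 was not low, with PCL minus BL at -0.96 (limma, adjusted p = 0.253) and its other probe at -0.88.

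In the eIF5 and eIF6 group, Eif5a, which encodes the hypusine-carrying factor that helps stalled ribosomes, was 5.72, 5.99, 5.82 and 5.95 in PCL, 5.04, 5.14 and 5.30 in MCL, and 6.03, 5.23, 5.21 and 5.36 in BL. PCL and MCL were separate, by 0.71 (95% interval 0.23 to 1.19; limma, adjusted p = 0.0759), and BL1 alone of the BL tumours reached PCL, as it did for Eif4a1. Its paralogue Eif5a2 had a PCL minus MCL difference of -0.24 ± 0.32 (SE), and the centred log2 ratio of Eif5a to Eif5a2 had a mean of 0.61 in PCL (SD 0.64, n = 4), -0.35 in MCL (SD 0.30, n = 3) and -0.34 in BL (SD 0.51, n = 4). Eif5, the GTPase activator of eIF2, was the most variable of the group (SD 0.55), from 2.78 in BL1 to 4.74 in BL2. Eif6, which keeps ribosomal subunits apart, was the least variable (SD 0.27). Its PCL minus MCL difference was 0.05 by its brightest probe, -0.005 by another and -1.07 by the third.

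The argonautes added the widest differences and no call. Ago2 was 3.14, 0.81, 1.02 and -0.07 in PCL, 1.25, 3.35 and 3.44 in MCL, and 3.17, 2.58, 3.56 and 1.59 in BL. PCL2 to PCL4 were the 3 lowest tumours and PCL1 was among the high ones, so the means differed by -1.45 from MCL and by -1.49 from BL without passing (limma, adjusted p = 0.301 and 0.333). The other probe of Ago2 gave 0.29 and 0.11, so the low values belong to 1 probe. Ago3 had the smallest spread of the 4 genes (SD 0.22).

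Position on the chromosome was looked at after the values of Eif4a1 and Eif5a had been seen, because these 2 genes lie 250 kb apart on chromosome 11 of build mm9. Of the 23 protein-coding genes with a mean level above 0 within 500 kb of the Eif4a1 probe, 20 had a higher mean in PCL than in MCL. Their median was 0.78, and 3 were called, Eif4a1 among them, against 6.85% of all genes tested. Leaving out the 2 members, 18 of 21 had a higher mean, with a median of 0.86, and 2 were called. On the rest of chromosome 11, 391 of 532 such genes had a higher mean, with a median of 0.28, and 12 were called. Over all 6234 such genes of the genome it was 57.2%, with a median of 0.07, and 220 were called. The centred median over the 23 genes was -0.12 in PCL1 and 0.55, 0.37 and 0.58 in PCL2 to PCL4, -0.44, -0.43 and -0.21 in MCL, and 0.29, -0.16, -0.32 and 0.02 in BL. PCL2 to PCL4 were high and BL1 came next, as for Eif4a1, and PCL1 lay above all 3 MCL tumours in both, but below BL4 in this median only. Trp53, the gene of which these mice carry 1 intact copy, lies 76.3 kb from the Eif4a1 probe; its level was -2.38, -0.19, -0.15 and 0.17 in PCL, -2.92, -1.23 and -1.47 in MCL, and -1.03, -2.11, -1.12 and -0.60 in BL, with a PCL minus MCL difference of 1.24 ± 0.65 (SE; limma, adjusted p = 0.279). Whether its probe lies within the deleted part is not known here.

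**Figure D5:**
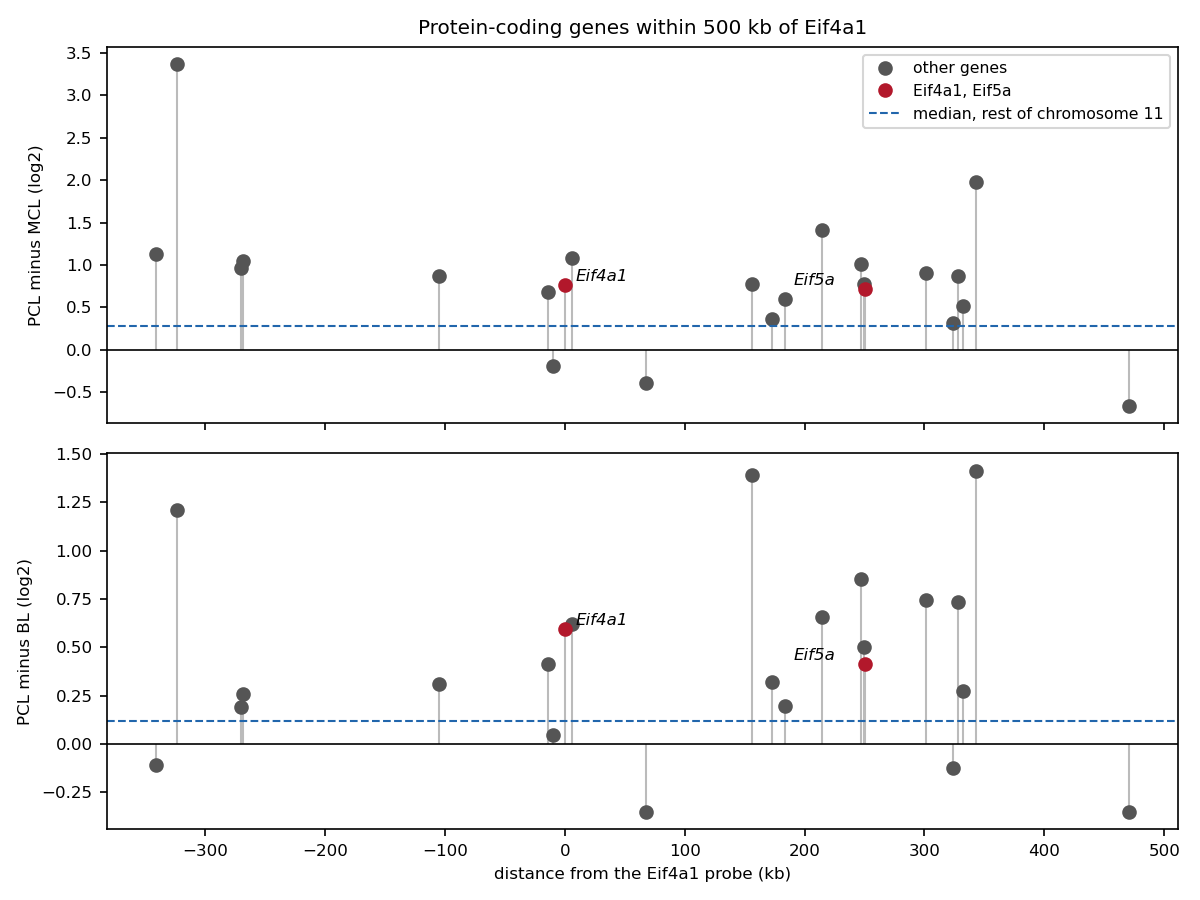
Difference of type means (log2) for protein-coding genes within 500 kb of the Eif4a1 probe, by distance from it in kb, with PCL minus MCL above and PCL minus BL under it; Eif4a1 and Eif5a are red and the dashed line is the median of the rest of chromosome 11. In the upper panel 20 of 23 genes lie above 0, with a median of 0.78.

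Members on chromosome 7 went the other way, as did that chromosome. Its 5 members are Eef2k, Eif3c, Eif3f, Eif3k and Eif4g2. Between PCL and MCL, 4 of the 5 had a lower mean in PCL, with a median of -0.25. Of the 470 protein-coding genes of chromosome 7 with a mean level above 0, 376 did, with a median of -0.34. Between PCL and BL, 5 of 5 members had a lower mean in PCL, with a median of -0.30. So did 411 of these 470 genes, with a median of -0.49. Eif4e3 lies on chromosome 6, where 238 of 273 such genes had a lower mean in PCL than in MCL, with a median of -0.50, close to its own -0.51. On chromosome 15, 6 of 7 members had a higher mean in PCL than in BL, with a median of 0.25, against 137 of 254 genes with a median of 0.03. The part of chromosome position in the members' differences was not tested.

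Genes that act on these factors, or elsewhere in protein synthesis, were compared from lists chosen by function. Of 68 tested genes in 6 lists, 2 were called between PCL and MCL, against 6.85% of all genes, 0 between PCL and BL, against 0.659%, and 0 between MCL and BL, against 6.63%. Rheb, the GTPase that activates mTOR, was 0.77, 0.37, 0.32 and 0.28 in PCL, 1.00, 1.91 and 1.53 in MCL, and 1.15, 0.75, 1.11 and 0.42 in BL. It was lower in every PCL tumour than in every MCL tumour, by a mean of -1.04 (limma, adjusted p = 0.0448), and was 1 of 14 genes called in the list of mTOR and MNK control. Vars, the valyl-tRNA synthetase, was 4.31, 4.06, 4.13 and 4.07 in PCL, 3.43, 3.44 and 3.42 in MCL, and 3.88, 3.97, 4.03 and 3.54 in BL. It was 0.71 higher in PCL than in MCL (limma, adjusted p = 0.0318) and was 1 of 20 cytosolic synthetase genes called, of which 15 had a higher mean in PCL, with a list median of 0.32.

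The other lists had no call in any contrast by limma. Among 10 genes of the eIF2 alpha kinases and the stress response they control, the smallest F test p belonged to Trib3, an ATF4 target. Its MCL minus BL difference was 2.85 ± 0.89 (SE, limma, adjusted p = 0.0967). Its level was 1.12, -2.96 and 1.23 in MCL and -2.21, -2.92, -3.70 and -3.41 in BL, so MCL2 lay within the BL range. Of 11 tested genes of termination, recycling and poly(A) binding, 10 had a higher mean in PCL than in MCL, with a median of 0.25, and Mcts1, a reinitiation factor, led with 0.69 (limma, adjusted p = 0.112). Secisbp2, which directs selenocysteine insertion, was 0.88 higher in mean in PCL than in BL (limma, adjusted p = 0.0754) in the list of 4 genes of hypusination and selenocysteine elongation. The mitochondrial factors had 8 of 9 higher means in PCL than in MCL, with a median of 0.13, and Tsfm, the mitochondrial exchange factor, differed by 0.63 ± 0.27 (SE).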

How the data were processed

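The deposited intensity values are 1 scanner output per tumour, in which the authors' software detrended each array and normalized nothing between arrays, per the file headers. That software was version 10.7.3.1 of Agilent Feature Extraction, and the processed signal is on a linear scale. Total RNA (0.2 µg, integrity number 8 to 10) was labelled with Cy3, per the labels' protocols. The deposited value table holds log2 values of the same arrays (column medians 7.25 to 7.26) and served as an alternative; its making is not described in the sources used here. Between 55.5% and 62.8% of spots were well above background, 21.5% to 29.2% held a substitute value, and 0 were saturated. From 43020 non-control spots, outlier-flagged spots were left out and spots of a probe averaged; 46 probes without a spot on some array were dropped. Signals were taken as log2 minus the array's 75th percentile, and a probe was kept if well above background on 3 or more arrays (25296 probes). The brightest probe stood for a gene, and accessions were matched to GRCm38.p6 symbols for 26686 probes.

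A limma 3.58.1 fit in R 4.3.3 with a mean per type (8 residual degrees of freedom, prior 2.01) gave the F test and 3 contrasts, with Benjamini-Hochberg adjustment over 20177 genes and a threshold of 0.05; it was tested on simulated data. Every adjusted p comes from this fit. Members and lists were chosen with earlier results of these data known. Named members are those called, the 10 with the smallest F test p, the extremes of spread in each role, paralogue pairs and those that failed the filter; others were named after their values were seen. Alternatives covered background correction, scaling, filters, probe choice, names, array weights, the variance prior, a replicate block and leaving out each array. Sequences are from RefSeq (GRCm38.p6); positions of probes are mm9.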

Additional observations from a re-analysis of the deposited data

Results flagged for a closer look

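In groups of 4 tumours, a value was singled out where its gap to the nearest of the other 3 took more of the group's range than Dixon's 95% critical value allows, which chance gives in about 1 of 20 groups. This held in 11 of 116 groups, 9 of them in PCL1 and 2 in BL1.

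PCL1 lay below PCL2 to PCL4 for Eif4a1 (6.02, against 6.35 to 6.40), Eef1d (5.85, against 6.16 to 6.22), Eef1g (6.66, against 6.98 to 7.04), Eef1e1 (1.92, against 2.59 to 2.65), Eif6 (3.64, against 3.88 to 3.92) and Ago3 (-4.69, against -4.23 to -4.14). PCL1 lay above them for Eif3j1 (3.31, against 2.26 to 2.34), Eif1ax (4.77, against 3.74 to 3.78) and Eif4g2 (2.65, against 2.31 to 2.34). Among the BL tumours, BL1 was lowest for Eif4a2 (3.04, against 4.13 to 4.23) and highest for Eif4e2 (4.08, against 3.46 to 3.54). PCL1 was also the PCL tumour lowest in plasma cell and macrophage markers.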

How the results depend on the processing

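Limits. Each type has 3 or 4 arrays on 1 slide, which limits what could be called, and type and slide cannot be told apart. The count of members called in the F test (1) and between PCL and MCL (1) moved with the processing: to 0 and 0 with normexp background correction and without the filter on dim probes, to 2 and 3 in the authors' value table, to 2 and 2 with probes well above background on all 11 arrays, to 3 and 2 with an intensity trend in the prior, and to 12 and 12 with array weights. Quantile normalization and centring on the median left 0 in the F test and 1 between PCL and MCL. Between PCL and BL the count of 0 moved to 9 with array weights, and between MCL and BL it was 0 in all 22 alternatives. The counts over all genes are not given beside these or the next counts. They therefore do not show a change particular to the members. Leaving out 1 tumour gave 0 to 3 in the F test, 0 to 3 between PCL and MCL, 0 to 1 between PCL and BL (Eef1e1, without PCL1) and 0 between MCL and BL; the count was 3 without BL1 between PCL and MCL and 3 without PCL1 or BL1 in the F test, and it was 0 in both without PCL2, PCL3, PCL4, MCL1, MCL2, MCL3 or BL4, and in the F test without BL2 or BL3.

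Eif4a1 kept its direction in all 22 alternatives, between 0.70 and 0.87 for PCL minus MCL; its call was lost in 10 of them there and in 14 in the F test (limma, adjusted p = 0.00412 to 0.146 and 0.00428 to 0.219). For Eif4e2, PCL minus BL was 0.25 with the mean over its probes. The replicate number, which is the array's position on the slide, was tried as a replicate block: 0 members were called in the F test and 0 between PCL and MCL, where Eif4a1 was 0.74 (adjusted p = 0.126) and 390 genes were called in all, against 1383. Same-numbered tumours deviated together by r of -0.05 to 0.17, and 8 of 11 correlated best with their own number, a hint from the data and not from the design. Small medians over role groups changed sign: the eIF4E partners between PCL and MCL went from 0.01 to -0.05 with normexp, and eIF3 between MCL and BL from 0.05 to -0.02 with quantile normalization and -0.05 in the authors' value table.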
